A study of Mus musculus with 62 samples.

Results

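The liver's response to the highest dose of a polychlorinated biphenyl (PCB) mixture was taken from the liver count table by treatment label, 6 mg/kg against vehicle, which gave 10 of the 62 samples in the series. The mice were female C57BL/6, an inbred laboratory strain, and the MARBLES mixture was given by mouth. Livers came from 6 animals at 6 mg/kg (numbered 52, 53, 54, 55, 56 and 58) and from 4 animals given the vehicle alone (3, 4, 7 and 8). Livers at 0.1 mg/kg (4 animals) and 1 mg/kg (6 animals) entered the same statistical fit and a second comparison. The labels give no age, no time between dosing and collection and no time of day, and the vehicle itself is not described. All 12 hepatocyte markers, among them Alb (albumin), Apob and Cps1, were in the table, and together they took 127900 to 144500 CPM (counts scaled to 1e6 per library) in vehicle livers and 106000 to 147200 CPM at 6 mg/kg, so both groups carry the label's tissue. The sums were scaled by total counts alone, whereas the mean log2 CPM also used the scaling factors of the statistical fit and weights each marker alike. That mean was 11.93 to 11.98 in the 4 vehicle livers and 10.77 to 11.86 at 6 mg/kg, without overlap. Of the 12 markers, 11 had a log2 fold change below 0 and 0 passed the test.

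PCBs reach the liver from the gut, and liver cells sense them mainly through 3 receptors that act as transcription factors. Congeners with a flat, dioxin-like shape bind the aryl hydrocarbon receptor, whose best-known targets are the P450 genes Cyp1a1 and Cyp1a2. Non-flat congeners act on the constitutive androstane receptor (CAR) and the pregnane X receptor (PXR), which switch on P450s of the Cyp2b, Cyp2c and Cyp3a families together with conjugating enzymes and export pumps. Hepatocytes are also professional secretory cells: most plasma proteins are folded in their endoplasmic reticulum (ER), and the unfolded protein response tunes the supply of ER chaperones to that load. Interferons act through receptor-activated transcription factors, among them IRF9, to induce antiviral genes in many cell types. Many liver transcripts also follow the circadian clock and feeding.

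Total counts ranged from 8.95 M to 10.2 M in the vehicle livers (M, 1e6 counts) and from 7.38 M to 10.1 M at 6 mg/kg. Of 12968 genes tested, 363 passed an adjusted p of 0.05 by edgeR's quasi-likelihood test, with 234 higher at 6 mg/kg (1.8% of genes tested) and 129 lower (0.995%). Those shares are the background for each gene list below. At an unadjusted p under 0.05 the shares were 13.1% higher (1696 genes) and 11.1% lower (1440 genes). In 3.26% of the genes every liver at 6 mg/kg lay above every vehicle liver, and in 3.5% every one lay below. By sign alone, 6727 of the 12968 genes had a log2 fold change above 0 and 6241 below 0. The number of calls rested strongly on the vehicle livers: without vehicle animal 3 it was 11, without animal 4 it was 3, without animal 7 it was 94 and without animal 8 it was 137. Of the livers at 6 mg/kg, leaving out animal 52, 53, 54 or 58 gave 89, 227, 153 and 60 calls, whereas leaving out animal 55 or 56 gave 1029 and 1302. In the values given per gene below, the 4 CPM in vehicle belong to animals 3, 4, 7 and 8 in that order, and the 3 CPM at 6 mg/kg are the lowest, the median and the highest of the 6 livers. The 3 genes called without animal 4 were Trib1, Dnajb9 and Gbp11. In a fit of the 10 livers alone 13 genes were called, among them Isg15, Ifit1, Xaf1, Cyp1a2, Cyp2b10 and Cyp2c54.

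A pair of technical measures also separated the groups. The clock index, the log2 CPM of Dbp minus that of Arntl, 2 clock genes that peak at opposite times of day, was 2.04, 2.49, 5.19 and 5.45 in vehicle animals 3, 4, 7 and 8 and ran from 6.58 to 8.48 at 6 mg/kg. The GC slope, which correlates (Spearman, over genes) transcript GC content with how far a gene's level in 1 library departs from its average, was -0.28 to -0.16 in vehicle and -0.02 to 0.24 at 6 mg/kg. Neither measure overlapped between the groups, and each gave a two-sided exact permutation p of 0.00952, the smallest that 210 splits allow. After adjustment over 13 measures each permutation p was 0.0619. The median GC content was 55.2% for the genes called higher, 43.2% for those called lower and 49.8% for all genes tested. With the GC slope as a covariate in edgeR 1 gene was called (1325 at an unadjusted p under 0.05), with the clock index as a covariate 0 genes were called (471 unadjusted), and with an offset for GC content and length 124 genes were called, 109 of them among the 363. Clock index and GC slope moved with the groups, and their part in the calls cannot be told apart from that of dose.

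**Figure D1:**
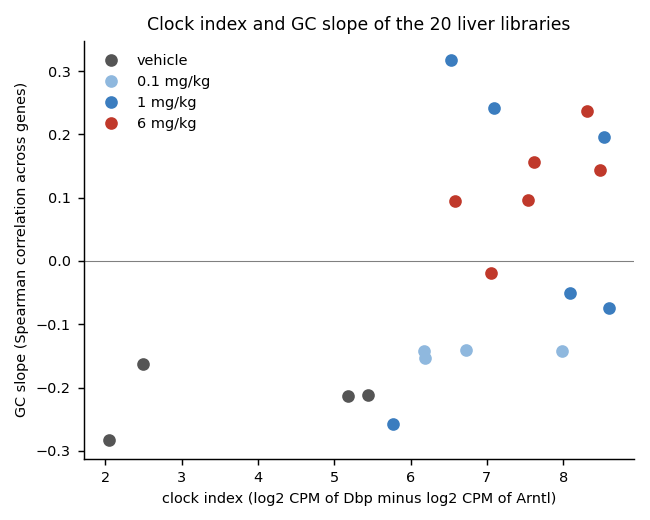
Clock index (x axis, log2 CPM of Dbp minus that of Arntl) against GC slope (y axis, a Spearman correlation across genes) for the 20 liver libraries, 1 point a library, coloured by dose. The vehicle livers lie at the lower left, with a clock index of at most 5.45 and a GC slope of at most -0.16, and the 6 livers at 6 mg/kg lie to their upper right.

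Across 58 gene lists, 85 of the 363 called genes were members of at least 1 list, and 23 lists held no called gene. The largest share of called members lay in the Type I interferon response (15 of 46 tested, all higher), and the largest share of members called lower lay in Endoplasmic reticulum chaperones and folding (6 of 32). The lists of CAR and PXR target P450s (5 higher and 1 lower of 24) and of the Core circadian clock loop (3 higher and 1 lower of 20) also held shares above those of all genes. The lists were chosen with earlier results of these data known, and no set test was made.

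**Figure D2:**
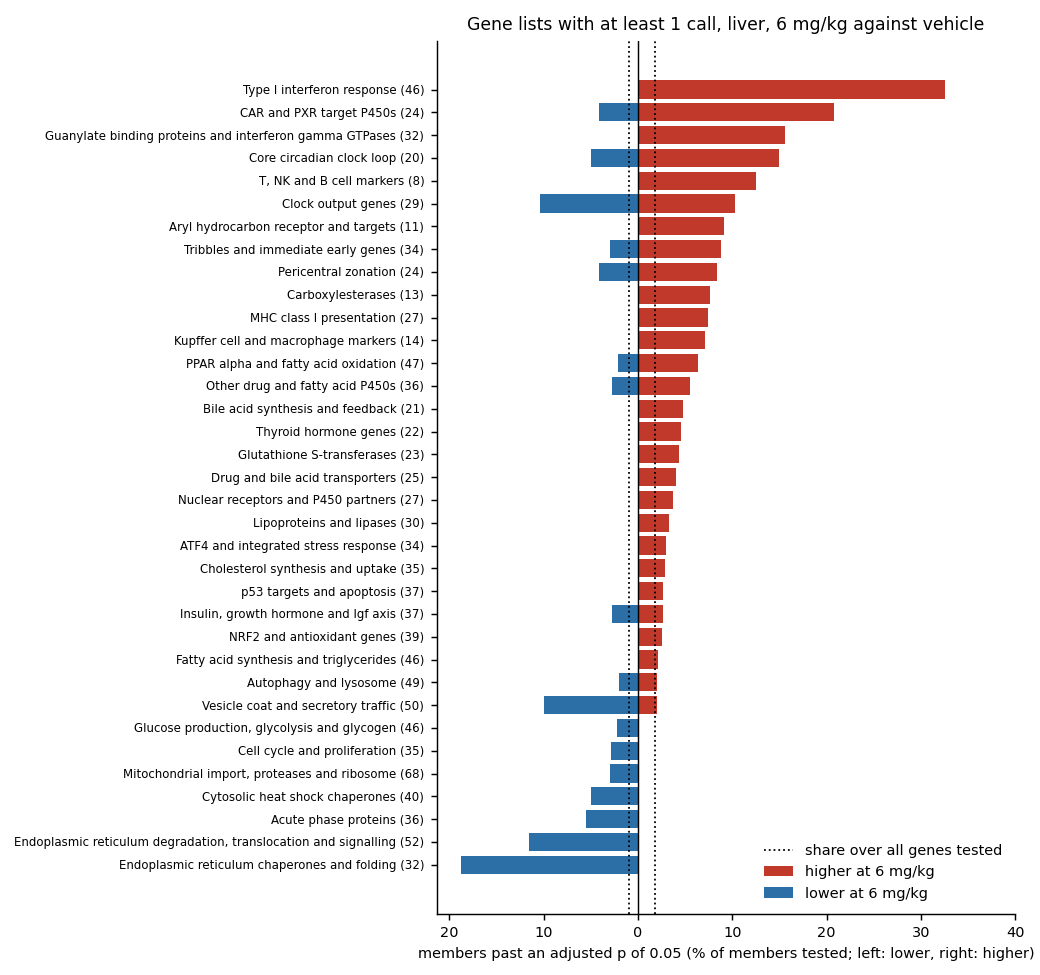
Share of tested members called at an adjusted p of 0.05 (x axis, percent, lower calls to the left and higher calls to the right) for each gene list with at least 1 call (y axis, with the number of members tested). The dotted lines mark the shares over all genes tested, 0.995% lower and 1.8% higher. The interferon list reaches 15 of 46 on the right and the ER chaperone list 6 of 32 on the left.

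Antiviral genes of the Type I interferon response were higher at 6 mg/kg, 15 of 46 by the test and 0 lower, and 42 of the 46 lay above 0. The median log2 fold change of the list was 0.83, against 0.02 over all genes tested. Interferon acts on such genes through a short promoter element, the interferon-stimulated response element. The stretches below show it in 3 called antiviral genes, read on the strand of the gene from the RefSeq promoter windows of build GRCm38.p6 (mm10), with the matches to GAAA, any 2 bases and GAAA (searched on both strands, overlapping matches merged) in capitals. They lie at chr19:34640745-34640853 (plus strand, Ifit1), chr4:156200835-156200936 (minus strand, Isg15) and chr19:34583333-34583456 (plus strand, Ifit3).
Ifit1: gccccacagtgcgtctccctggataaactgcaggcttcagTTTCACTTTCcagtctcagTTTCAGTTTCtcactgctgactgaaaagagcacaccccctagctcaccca
Isg15: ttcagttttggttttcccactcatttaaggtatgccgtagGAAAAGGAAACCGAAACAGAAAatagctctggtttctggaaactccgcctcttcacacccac
Ifit3: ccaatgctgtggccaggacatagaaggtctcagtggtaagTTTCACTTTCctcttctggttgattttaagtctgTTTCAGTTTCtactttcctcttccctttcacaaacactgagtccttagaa
The element occurred in 3.44% of the 32851 promoter windows of 300 bases, and in 15 of the 33 list members that have a window (45.5%). The first share counts windows, whereas the second counts genes with a match in any of their windows. A match describes the letters only. Members with a match had a median log2 fold change of 0.78 and those without had 0.66, so both kinds lay well above the median of all genes.

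Among the transcription factors of the pathway, Irf7, the amplifier of interferon production, measured 56.3, 57.5, 46.1 and 51.5 CPM in vehicle and 88.9, 106 and 166 CPM at 6 mg/kg. Every liver at 6 mg/kg lay above every vehicle liver (log2 fold change 1.09, SE 0.188, edgeR adjusted p 0.00932). Irf9, the DNA-binding part of the interferon-activated factor, had 29.9, 26.2, 28.6 and 33.1 CPM in vehicle and 38.3, 49.2 and 60.1 CPM at 6 mg/kg, again without overlap (log2 fold change 0.75, SE 0.139, edgeR adjusted p 0.0134). The pathway's receptor chains did not pass: Ifnar1 and Ifnar2 had log2 fold changes of 0.14 and 0.00 (edgeR adjusted p 0.602 and 0.996), and the signal carrier Stat2 had 0.78 (edgeR adjusted p 0.137).

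Effector genes of the pathway rose too. Ifit1, which binds foreign RNA caps, measured 6.97, 5.07, 7.07 and 11.2 CPM in vehicle and 16.4, 30.8 and 58.2 CPM at 6 mg/kg. Its groups did not overlap, and animal 58 was the highest (log2 fold change 2.15, SE 0.417, edgeR adjusted p 0.0134). Isg15, a ubiquitin-like modifier of other proteins, measured 10.7, 9.37, 14.8 and 12.3 CPM in vehicle and 19.5, 31 and 43.1 CPM at 6 mg/kg, also without overlap (log2 fold change 1.46, SE 0.379, edgeR adjusted p 0.0437). Xaf1, a pro-apoptotic interferon target, measured 6.78, 6.03, 6.02 and 8.1 CPM in vehicle and 15.2, 18.7 and 34.5 CPM at 6 mg/kg. Animal 58 stood apart from the other treated livers, and all 6 lay above vehicle (log2 fold change 1.64, SE 0.321, edgeR adjusted p 0.0134). Dhx58, a regulator of the cytoplasmic RNA sensors, measured 6.88, 9.66, 8.97 and 10.6 CPM in vehicle and 15.1, 17.7 and 23.5 CPM at 6 mg/kg, which did not overlap (log2 fold change 1.04, SE 0.202, edgeR adjusted p 0.0134). Ifit3 (log2 fold change 1.18), Zbp1 (1.23), a sensor of left-handed nucleic acid, and the RNA editor Adar (0.99) rose as well. Named after their values were seen, the remaining called members were Mx1 (2.26), Ddx60 (1.65), Mx2 (1.60), Oas1a (0.85), Usp18 (0.84) and Parp14 (0.83). Reads of the Ifit, Oas and Mx families can match near copies, and how such reads were counted is not given in the sources used here.

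**Figure D3:**
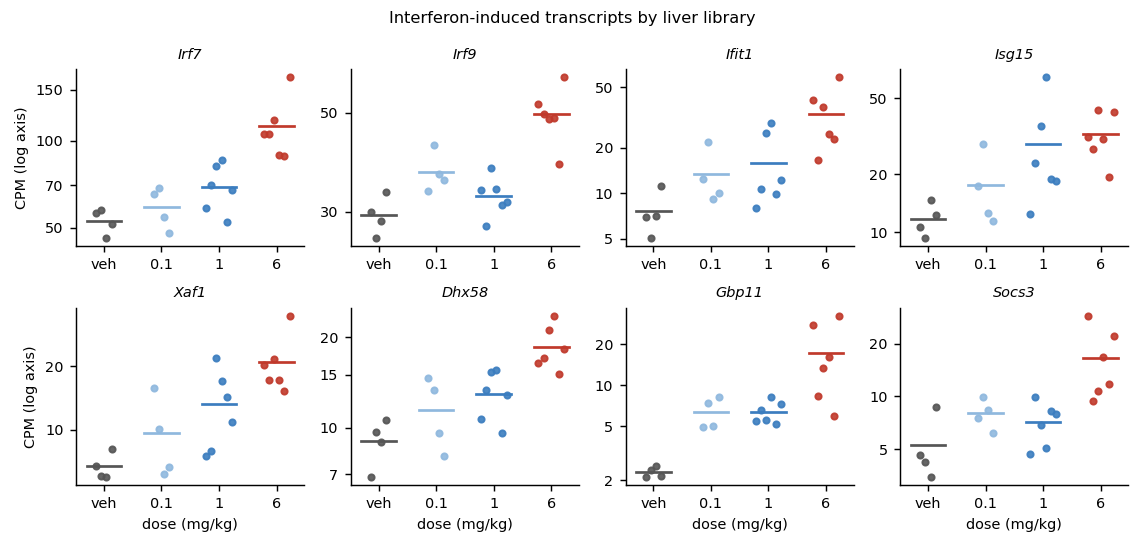
CPM (y axis, log scale) of 8 interferon-induced transcripts in each of the 20 liver libraries by dose (x axis, mg/kg), with a line at the group mean. In every panel the 6 livers at 6 mg/kg lie above the 4 vehicle livers.

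The interferon pattern was uneven across animals. The mean log2 CPM of the 46 members was 3.37 to 3.55 in the 4 vehicle livers and 3.96 to 4.60 at 6 mg/kg, with animal 56 lowest and animal 58 highest and no overlap. The calls depended on single livers: the Type I interferon response had 1 called member without vehicle animal 3, 0 without animal 4, 7 without animal 7 and 7 without animal 8, and 7, 9, 6 and 24 without animals 52, 54, 58 and 56 of the treated group. Its members had a median GC content of 50.4%, and with the offset for GC content and length 15 were called, 13 of them the same genes. With the GC slope or the clock index as a covariate 0 were called. At the lower doses the median log2 fold change against the same vehicle livers was 0.34 at 0.1 mg/kg and 0.31 at 1 mg/kg, comparisons that share the vehicle samples.

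The neighbouring list of Guanylate binding proteins and interferon gamma GTPases, which defend cells against intracellular microbes, had 5 of 32 members higher, 0 lower, and a median log2 fold change of 0.44. Gbp11 measured 2.13, 2.39, 2.53 and 2.14 CPM in vehicle and 5.92, 14.7 and 32.2 CPM at 6 mg/kg. The vehicle values lay close together, the treated ones spread more than 5-fold, and the groups did not overlap (log2 fold change 2.90, SE 0.393, edgeR adjusted p 0.00134). Socs3, the feedback inhibitor of cytokine receptors, measured 4.65, 4.21, 3.48 and 8.7 CPM in vehicle and 9.36, 14.3 and 28.7 CPM at 6 mg/kg. The highest vehicle liver, animal 8, came close to the lowest treated one (log2 fold change 1.66, SE 0.325, edgeR adjusted p 0.0134). Gbp10 (1.21), Gbp3 (0.92) and Nlrc5 (1.02), the activator of the major histocompatibility complex (MHC) class I genes, rose too. The list was not uniform: Gbp2, Irgm2 and Tgtp1 had log2 fold changes of -0.27, 0.06 and 0.00, and none of them passed. The Gbp genes are near copies of each other, so the split of reads between them is uncertain. Without vehicle animal 3 or 4 the list had 1 called member each, without vehicle animal 7 or 8 it had 2 each, and without treated animal 52, 54 or 58 it had 2 each. Without treated animal 53 it had 3 and without 56 it had 8.

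In MHC class I presentation, Nlrc5 and the peptide transporter Tap1 (log2 fold change 0.74, edgeR adjusted p 0.0467) were higher, and the other 25 members did not pass, H2-K1 at -0.12 and B2m at -0.02 among them. MHC class II and antigen presenting cells had 0 of 12 called with a median of 0.40, and NF-kB and inflammatory signalling had 0 of 33 called with a median of 0.28.

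Markers of immune cells lay higher in part of the treated livers, with overlap between the groups. The summed level of the 14 Kupffer cell and macrophage markers, all of them in the table, was 239.7 to 387.5 CPM in vehicle and 370.2 to 678.3 CPM at 6 mg/kg (two-sided exact permutation p 0.019, 0.0823 after adjustment over 13 measures). Marker sums were scaled by total counts alone, unlike the CPM of single genes. Clec4f, a lectin of Kupffer cells, the resident liver macrophages, measured 56.5, 69.2, 81.2 and 48.8 CPM in vehicle and 89.8, 112 and 194 CPM at 6 mg/kg, with no overlap (log2 fold change 0.93, SE 0.226, edgeR adjusted p 0.0333). It did not pass without vehicle animal 3, 4 or 8 or treated animal 58. The other 13 markers did not pass. Timd4 had 0.99, Csf1r 0.69, Marco -0.06 and Adgre1 -0.05. The median over the list was 0.54 at 6 mg/kg, and 0.53 and 0.46 at 0.1 and 1 mg/kg against the same vehicle livers. The 16 T, NK and B cell markers in the table summed to 8.45 to 14.2 CPM in vehicle and 12.6 to 29.6 CPM at 6 mg/kg (two-sided exact permutation p 0.0286, 0.093 after adjustment). Called genes on no list, named after their values were seen, included Slc11a1, Syk, Sirpa and Pld4, which are known from macrophages (log2 fold changes 1.12, 1.18, 0.61 and 1.01). The 5 red cell markers in the table summed to 170.7 to 2964 CPM in vehicle, with animals 7 and 8 high, and to 166.9 to 303.6 CPM at 6 mg/kg. In whole tissue, more cells of a type and more RNA per cell cannot be told apart, and the part of these cells in the interferon result was not tested.

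ER chaperones were lower at 6 mg/kg. Of 32 tested members of Endoplasmic reticulum chaperones and folding, 6 were lower, 0 were higher and 28 lay below 0, with a median log2 fold change of -0.47. The promoters of such genes can carry the ER stress response element, through which the factors ATF6 and XBP1 raise transcription. Stretches from 2 called genes, at chr2:34771985-34772083 (plus strand, Hspa5) and chr15:88819480-88819578 (plus strand, Creld2) of GRCm38.p6, show it in capitals as CCAAT, any 9 bases and CCACG or its reverse complement.
Hspa5: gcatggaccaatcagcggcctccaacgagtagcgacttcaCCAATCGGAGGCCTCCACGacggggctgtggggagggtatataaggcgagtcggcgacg
Creld2: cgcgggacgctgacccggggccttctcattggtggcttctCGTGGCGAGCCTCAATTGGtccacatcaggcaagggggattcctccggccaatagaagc
Only 0.119% of all promoter windows held this strict form (39 of 32851). It was found in any window of 8 of the 27 list members that have one (29.6%), a share of genes and not of windows. Those 8 were Calr, Canx, Creld2, Dnajc3, Ero1b, Hsp90b1, Hspa5 and Pdia6, each with a log2 fold change below 0 and a median of -0.88, and 2 of them passed. The 19 members without it had a median of -0.37. In Endoplasmic reticulum degradation, translocation and signalling the order was the opposite: the 2 members with the element, Derl3 (1.55) and Syvn1 (-0.12), had a median of 0.72 and did not pass, and the 40 without it had a median of -0.42, with 5 called. None of the 42 members of Vesicle coat and secretory traffic that have a window held it. The match is a description of sequence, and the differences between these medians were not tested.

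Dnajb9, a co-chaperone that the unfolded protein response induces, measured 84.1, 73.1, 60.8 and 49.7 CPM in vehicle and 12.8, 16.6 and 27.4 CPM at 6 mg/kg. Every treated liver lay below every vehicle liver (log2 fold change -1.87, SE 0.233, edgeR adjusted p 0.00066), and the mean was lower at each higher dose: 66.9 ± 14.9 CPM for vehicle (SD, n = 4), 45.8 ± 9.43 for 0.1 mg/kg (SD, n = 4), 27.2 ± 7.95 for 1 mg/kg (SD, n = 6) and 18.3 ± 5.97 for 6 mg/kg (SD, n = 6). Hspa13, an ER-associated member of the Hsp70 family, measured 33, 28.3, 29.4 and 21.3 CPM in vehicle and 6.68, 12.4 and 15.4 CPM at 6 mg/kg, without overlap (log2 fold change -1.25, SE 0.229, edgeR adjusted p 0.0134). Hspa5 encodes BiP, the main Hsp70 of the ER, which also holds the sensors of the unfolded protein response inactive. It measured 795, 608, 687 and 388 CPM in vehicle and 128, 282 and 412 CPM at 6 mg/kg. Vehicle animal 8 lay within the treated range (log2 fold change -1.21, SE 0.267, edgeR adjusted p 0.0237). Manf, a secreted ER stress protein, measured 151, 127, 137 and 82.7 CPM in vehicle and 37.2, 53.1 and 87.1 CPM at 6 mg/kg, and the same vehicle animal overlapped the treated group (log2 fold change -1.09, SE 0.281, edgeR adjusted p 0.0413). Creld2 (-1.14) and Dnajc25 (-0.56) were the other called members. Chosen after their values were seen, Hyou1 (-1.27), Pdia4 (-0.81) and Sdf2l1 (-1.03) did not pass, with edgeR adjusted p of 0.0543, 0.0589 and 0.0875, and Hsp90b1 and Calr had -0.39 and -0.34. For Endoplasmic reticulum chaperones and folding, 1 member stayed called without vehicle animal 3 or 4, 2 without animal 7, 3 without treated animal 52 and 2 without 58, whereas 12 were called without 55 and 14 without 56. With the GC and length offset 3 were called.

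Other steps of the secretory pathway moved the same way. Endoplasmic reticulum degradation, translocation and signalling had 6 of 52 members lower, 0 higher and 47 below 0 (median log2 fold change -0.44). Selenos, a selenoprotein that links misfolded proteins to degradation, measured 81.4, 65.6, 72.4 and 58.6 CPM in vehicle and 11.8, 21.6 and 53.2 CPM at 6 mg/kg. The groups did not overlap, and the treated values spread over more than 4-fold (log2 fold change -1.31, SE 0.335, edgeR adjusted p 0.0419). Ssr3, a subunit of the complex that helps nascent chains through the ER membrane, measured 222, 217, 210.4 and 226 CPM in vehicle and 88.7, 136 and 169.5 CPM at 6 mg/kg, without overlap (log2 fold change -0.71, SE 0.174, edgeR adjusted p 0.0336). The signal peptidase subunit Spcs2 (-0.71), the translocation factor Sec63 (-0.65), the signal recognition particle subunit Srp19 (-0.56) and the transcription factor Creb3l2 (-0.89) fell as well. None of the 3 stress sensors passed, with log2 fold changes of -0.33 for Ern1, -0.84 for Eif2ak3 and -0.81 for Atf6 (edgeR adjusted p 0.317, 0.0589 and 0.0799), nor did Xbp1 (-0.37, edgeR adjusted p 0.253). On this list 0 members were called without vehicle animal 3, 4 or 7 or without treated animal 52, 1 without vehicle animal 8 or treated animal 58, 2 without treated animal 54, 3 without 53, 10 without 55 and 17 without 56. With the GC and length offset 2 were called.

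In Vesicle coat and secretory traffic, 5 of 50 members were lower, 1 was higher and 40 lay below 0 (median -0.33). Bet1, a membrane fusion protein of ER-to-Golgi vesicles, measured 50.6, 54.1, 52.6 and 67.1 CPM in vehicle and 26.2, 31.9 and 39 CPM at 6 mg/kg, with no overlap (log2 fold change -0.80, SE 0.157, edgeR adjusted p 0.0134). Tmed2, a cargo receptor of coated vesicles, measured 223, 216, 211 and 189.9 CPM in vehicle and 70.9, 121 and 179 CPM at 6 mg/kg, also without overlap (log2 fold change -0.80, SE 0.217, edgeR adjusted p 0.0494). Tmed3 (-0.96), the coat protein Sec23b (-0.81) and the small GTPase Arf4 (-0.79) fell, and Sec16b, which marks ER exit sites, rose (0.85). Without vehicle animal 3 or 4 this list had 0 called members. Without vehicle animal 7 or 8, or without treated animal 52, 54 or 58, it had 1 each. Without 53 it had 3 and without 56 it had 12. With the GC and length offset 1 was called. Named after their values were seen, further called ER and Golgi genes on no list were Ostc, a subunit of the enzyme that attaches sugars to new proteins (-1.48), Mgat2 (-1.19), Tmx1 (-1.01), Selenof (-0.94) and Ficd (-1.03).

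**Figure D4:**
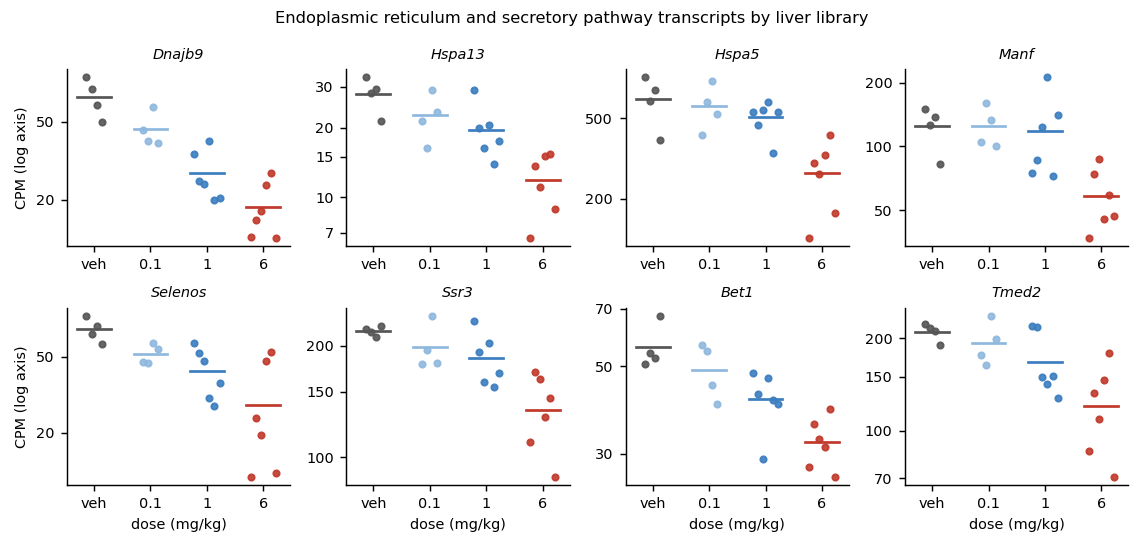
CPM (y axis, log scale) of 8 ER and secretory pathway transcripts in each of the 20 liver libraries by dose (x axis, mg/kg), with a line at the group mean. The group means at 6 mg/kg are the lowest in each panel; Hspa5 and Manf overlap vehicle through vehicle animal 8.

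List means did not overlap between the groups in the 3 secretory lists, nor in several others. Cytosolic heat shock chaperones (difference of the group means -0.32) and Proteasome subunits (-0.26) were also lower without overlap. Without overlap too, the Core circadian clock loop (0.4), Guanylate binding proteins and interferon gamma GTPases (0.4) and the Type I interferon response (0.76) were higher. The mean log2 CPM of Endoplasmic reticulum chaperones and folding was 6.11 to 6.46 in vehicle and 5.33 to 5.98 at 6 mg/kg, with animal 52 lowest and animal 56 highest. For Endoplasmic reticulum degradation, translocation and signalling it was 5.74 to 5.95 and 5.08 to 5.65, and for Vesicle coat and secretory traffic 6.02 to 6.17 and 5.57 to 6.01, where animal 58 was lowest. In these 3 secretory lists the differences of the group means were -0.57, -0.46 and -0.31. The Hepatocyte markers had -0.53, also without overlap and with animal 52 lowest and animal 56 highest. Nuclear-retained long noncoding RNAs had a difference of 0.52 with overlap, a median log2 fold change of 0.56, 0 of 15 called, and animal 52 highest. The part of the hepatocyte and noncoding RNA lists in the secretory result was not tested. At 0.1 and 1 mg/kg the medians against the same vehicle livers were -0.05 and -0.07 for chaperones, -0.07 and -0.12 for degradation and translocation, and -0.09 and -0.09 for vesicle traffic. Median GC content was 49.0%, 48.2% and 48.7% in the 3 secretory lists, near the 49.8% of all genes tested.

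Other stress lists gave fewer calls. Cytosolic heat shock chaperones had 2 of 40 lower. Hspa1b, the stress-induced cytosolic Hsp70, measured 25.7, 29.4, 30.2 and 7.74 CPM in vehicle and 2.5, 3.62 and 8.04 CPM at 6 mg/kg, with vehicle animal 8 inside the treated range (log2 fold change -2.48, SE 0.477, edgeR adjusted p 0.0134). Its near copy Hspa1a had -2.02 without passing (edgeR adjusted p 0.0808), and reads of the pair may not be separable. Dnajb4, a co-chaperone of Hsp70, measured 26.6, 26.1, 29.6 and 24.4 CPM in vehicle and 10.2, 15.8 and 18.1 CPM at 6 mg/kg, without overlap (log2 fold change -0.87, SE 0.163, edgeR adjusted p 0.0134). In ATF4 and integrated stress response 1 of 34 was called, Gadd45a, a growth arrest gene (log2 fold change 1.33, edgeR adjusted p 0.0442). Atf4 itself had 0.02, and Ddit3, the classical marker of ER stress, 0.17. Proteasome subunits had 0 of 42 called and a median of -0.28, with 32 of them below 0.

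CAR and PXR target P450s had 5 of 24 members higher and 1 lower, with a median log2 fold change of 0.04. Cyp2b10, the standard marker of CAR activation in mice, measured 2.23, 1.72, 0.739 and 1.43 CPM in vehicle and 11.4, 50.6 and 247 CPM at 6 mg/kg, with raw counts of 7 to 23 in vehicle and 109 to 2278 at 6 mg/kg. The lowest treated liver was above the highest vehicle liver, and treated livers differed among themselves more than 20-fold (log2 fold change 6.01, SE 0.912, edgeR adjusted p 0.00592). At 0.1 mg/kg the mean was 3.07 ± 1.79 CPM (SD, n = 4). At 1 mg/kg it was 7.84 ± 4.61 CPM (SD, n = 6). Cyp2c54 measured 15.7, 12.5, 28.1 and 29.2 CPM in vehicle and 102, 195 and 342 CPM at 6 mg/kg, without overlap (log2 fold change 3.31, SE 0.683, edgeR adjusted p 0.0204). Cyp2c37 measured 583, 467, 466 and 782 CPM in vehicle and 793, 1082 and 1732 CPM at 6 mg/kg. The highest vehicle liver and the lowest treated one nearly touched (log2 fold change 1.04, SE 0.237, edgeR adjusted p 0.0272). Cyp3a59 (1.20) and Cyp2c50 (1.16) rose, and Cyp2c38 fell from 169.7, 162, 157 and 217 CPM in vehicle to 57, 102 and 121 CPM at 6 mg/kg (log2 fold change -0.84, SE 0.197, edgeR adjusted p 0.0293).

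The family was divided. Of 13 Cyp2c genes tested, 3 were higher and 1 was lower, and the family median was -0.20. Chosen after their values were seen, Cyp3a11, the usual marker of PXR activation in mice, had 0.20 (edgeR adjusted p 0.552), Cyp2c29, another CAR target, had 0.33 (edgeR adjusted p 0.816), and Cyp2c40, Cyp2c70 and Cyp2c39 had -0.87, -1.11 and -1.13 without passing. Cyp2b, Cyp2c and Cyp3a genes lie in clusters of close copies, and reads could be divided among them. In CAR and PXR target P450s, 1 member was called without vehicle animal 3, 0 without animal 4, 3 without animal 7, 4 without treated animal 52 and 3 without 58, while 10 were called without 56. With the GC and length offset 6 were called, 5 of them the same genes, and with the GC slope as a covariate 1 was called.

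Cyp1a2, the P450 that the aryl hydrocarbon receptor controls in liver and that clears caffeine, measured 365, 329, 320.3 and 374 CPM in vehicle and 563, 1034 and 1192 CPM at 6 mg/kg. The vehicle livers lay within 320 to 374 CPM and every treated one above them (log2 fold change 1.44, SE 0.231, edgeR adjusted p 0.00592). It was the only called member among 11 in Aryl hydrocarbon receptor and targets. Cyp1a1, the most inducible target of that receptor, had 1.53 (edgeR adjusted p 0.183), and Tiparp and Nqo1 had -0.02 and -0.31. In Other drug and fatty acid P450s, Cyp4f15 (0.79) and Cyp2j9 (1.71) were higher and Cyp2d40 (-1.07) lower, of 36 tested.

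Among the receptors, Nr1i2, which encodes PXR, measured 57.7, 76.2, 63.5 and 63.2 CPM in vehicle and 69, 105 and 139.9 CPM at 6 mg/kg, and the groups overlapped (log2 fold change 0.71, SE 0.187, edgeR adjusted p 0.0441). Nr1i3, which encodes CAR, had 1.03 without passing (edgeR adjusted p 0.0698). Ces2a, a carboxylesterase that splits ester drugs and lipids, measured 151, 145, 222 and 249 CPM in vehicle and 316, 399 and 415 CPM at 6 mg/kg, without overlap (log2 fold change 1.01, SE 0.173, edgeR adjusted p 0.00932). It was the only called one of 13 carboxylesterases. Abcc3, a pump that exports conjugates from hepatocytes to blood, measured 124, 110.5, 98 and 96.8 CPM in vehicle and 144, 244 and 321 CPM at 6 mg/kg, without overlap (log2 fold change 1.07, SE 0.238, edgeR adjusted p 0.0244). The other 24 transporters tested did not pass. Gstt2, a glutathione transferase, measured 55.8, 91.2, 78.8 and 110.2 CPM in vehicle and 119.7, 206 and 271 CPM at 6 mg/kg, again without overlap (log2 fold change 1.24, SE 0.283, edgeR adjusted p 0.0271), and it was the only one of 23 Glutathione S-transferases to pass.

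UDP glucuronosyltransferases and sulfotransferases, which add sugar or sulfate to foreign compounds, had 0 of 28 called, 23 of them below 0 and a median of -0.40. NRF2 and antioxidant genes had 1 of 39 called, Mafg, a small Maf partner of NRF2 that also represses bile acid synthesis genes. It measured 48.9, 36.3, 59 and 53.2 CPM in vehicle and 87.1, 92.4 and 124 CPM at 6 mg/kg, without overlap (log2 fold change 0.98, SE 0.155, edgeR adjusted p 0.00592). Nqo1, Gclc and Hmox1, standard NRF2 targets named after their values were seen, had -0.31, 0.19 and 0.25 and did not pass. In Bile acid synthesis and feedback, Mafg was the only call of 21, and Cyp7a1, the rate-limiting enzyme, had -0.82 (edgeR adjusted p 0.274).

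**Figure D5:**
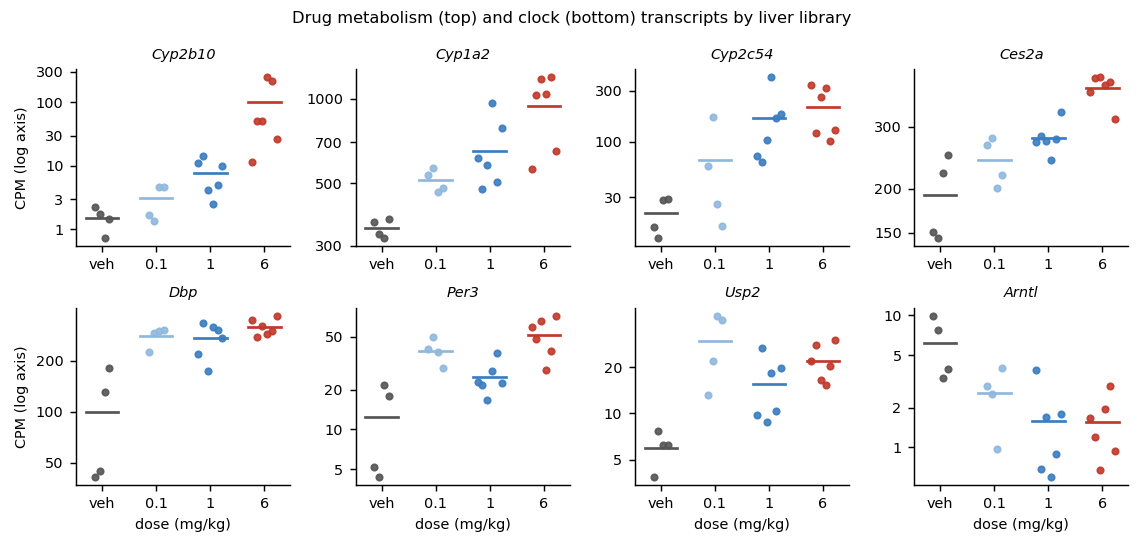
CPM (y axis, log scale) of 4 drug metabolism transcripts (top) and 4 clock transcripts (bottom) in each of the 20 liver libraries by dose (x axis, mg/kg), with a line at the group mean. Means in the top row step up with dose, while in the bottom row the vehicle mean lies apart from the means of all 3 doses.

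Clock genes differed between the groups, as the clock index did. In the Core circadian clock loop 3 of 20 members were higher and 1 lower. Arntl, the activator of the loop, measured 9.88, 7.75, 3.38 and 3.93 CPM in vehicle and 0.678, 1.44 and 2.91 CPM at 6 mg/kg. Animals 3 and 4 were the highest, and no treated liver reached the vehicle range (log2 fold change -1.98, SE 0.48, edgeR adjusted p 0.0333). With the clock index as a covariate its value turned to 0.53 (edgeR adjusted p 1.0), a covariate that holds Arntl itself. Per3, a repressor of the loop, measured 5.23, 4.4, 21.8 and 17.9 CPM in vehicle and 28, 53.7 and 71.8 CPM at 6 mg/kg, without overlap (log2 fold change 2.09, SE 0.387, edgeR adjusted p 0.0134). The repressors Ciart (2.88) and Bhlhe41 (2.53) were the other called members, and Clock, Per1 and Nr1d1, chosen after their values were seen, had -0.76, 0.56 and 0.19 without passing. The Core circadian clock loop had 0 called members without vehicle animal 3 or 4, 2 without vehicle animal 8 or treated animal 52 or 54, 1 without 58 and 7 without 55.

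Among Clock output genes 3 of 29 were higher and 3 lower. Dbp, a clock-driven transcription factor, measured 41.5, 44.6, 131 and 181 CPM in vehicle and 278, 310.2 and 368 CPM at 6 mg/kg, with vehicle animals 3 and 4 far below animals 7 and 8 (log2 fold change 1.68, SE 0.321, edgeR adjusted p 0.0134). At 0.1 mg/kg the mean was 281.7 ± 37.0 CPM (SD, n = 4), for 1 mg/kg 272 ± 62.2 CPM (SD, n = 6), and for 6 mg/kg 318 ± 35.6 CPM (SD, n = 6). Tef, its relative, measured 70.9, 62.8, 114 and 119.7 CPM in vehicle and 152, 253 and 348 CPM at 6 mg/kg, without overlap (log2 fold change 1.42, SE 0.256, edgeR adjusted p 0.013). Usp2, a clock-driven deubiquitinase, measured 3.87, 7.65, 6.23 and 6.19 CPM in vehicle and 15.3, 21.1 and 30.4 CPM at 6 mg/kg, without overlap (log2 fold change 1.88, SE 0.366, edgeR adjusted p 0.0134). Avpr1a, the liver vasopressin receptor, fell (-1.03, SE 0.219, edgeR adjusted p 0.0204), as did Pdk4 and Hspa1b. Against the 0.1 and 1 mg/kg livers Dbp and Usp2 had log2 fold changes of 0.20 and 0.03, which did not pass. The list of Clock output genes had 0 called members without vehicle animal 3 or 4 and 10 without treated animal 56.

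In lipid metabolism a few members were called. PPAR alpha and fatty acid oxidation had 3 of 47 members higher and 1 lower, with 35 above 0 (median 0.24). Acaa1b, a peroxisomal thiolase, measured 724, 1392, 926 and 961 CPM in vehicle and 1945, 2308 and 2900 CPM at 6 mg/kg, without overlap (log2 fold change 1.26, SE 0.315, edgeR adjusted p 0.0367). Slc27a1, a fatty acid transporter, measured 6.78, 9.09, 7.07 and 9.41 CPM in vehicle and 12.6, 17.5 and 30.1 CPM at 6 mg/kg, without overlap (log2 fold change 1.30, SE 0.282, edgeR adjusted p 0.0233). Ucp2, a mitochondrial carrier, measured 20.1, 34.5, 28.4 and 37 CPM in vehicle and 41.2, 57.5 and 95.1 CPM at 6 mg/kg, also without overlap (log2 fold change 1.02, SE 0.276, edgeR adjusted p 0.0481). Pdk4, a fasting-induced kinase that spares glucose, measured 11, 28.9, 11.3 and 13.1 CPM in vehicle and 3.12, 5.05 and 11.1 CPM at 6 mg/kg. The groups overlapped narrowly and vehicle animal 4 stood high (log2 fold change -1.41, SE 0.337, edgeR adjusted p 0.0319). Cyp4a10 and Cyp4a14, usual targets of the receptor, had 1.75 and 0.69 without passing, and Cpt1a, the gate of mitochondrial oxidation, had 0.11. On this list, PPAR alpha and fatty acid oxidation, 0 members were called without vehicle animal 3 or 4 or without treated animal 52 or 58, 1 without vehicle animal 7 or 8 or treated animal 54, and 2 without 53.

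In Cholesterol synthesis and uptake 27 of 35 members lay below 0 with a median of -0.37, close to the -0.38 and -0.37 at 0.1 and 1 mg/kg against the same vehicle livers, and 0 were called lower. Its 1 called member, the sterol exporter Abcg5, rose (1.06, edgeR adjusted p 0.0413). Fatty acid synthesis and triglycerides and Lipoproteins and lipases each had 1 called member, and Glucose production, glycolysis and glycogen had 1 lower of 46.

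Among secreted plasma proteins, Acute phase proteins had 2 of 36 lower and 0 higher. Apcs, serum amyloid P, measured 201, 194, 205 and 211 CPM in vehicle and 91.9, 115 and 155 CPM at 6 mg/kg, without overlap (log2 fold change -0.78, SE 0.151, edgeR adjusted p 0.0134). Crp, its pentraxin relative, measured 437, 398, 426 and 346 CPM in vehicle and 78.6, 156 and 312 CPM at 6 mg/kg, without overlap (log2 fold change -1.20, SE 0.28, edgeR adjusted p 0.0293). The inducible acute phase genes Saa1, Saa2 and Orm2, chosen after their values were seen, had -0.39, -0.40 and 0.34 and did not pass. Complement and coagulation had 0 of 39 called, and Alb had -0.18.

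Tribbles and immediate early genes, which respond fast to signals, had 3 of 34 members higher and 1 lower (11.8% called, against 2.8% over all genes tested): Trib1, Gadd45a and Ier2 (0.94) higher and Btg1 lower. Insulin, growth hormone and Igf axis had 1 of 37 higher, Socs3, and 1 lower, Lepr. Trib1, a pseudokinase that steers degradation of the factor CEBPA and limits lipid synthesis, measured 19.5, 16.6, 20.2 and 19.4 CPM in vehicle and 30.4, 39.6 and 41.8 CPM at 6 mg/kg, without overlap (log2 fold change 1.02, SE 0.145, edgeR adjusted p 0.00179). Its mean was 40.1 ± 3.52 CPM with 0.1 mg/kg (SD, n = 4) and 32.9 ± 5.43 CPM with 1 mg/kg (SD, n = 6), beside 38.4 ± 4.05 CPM with 6 mg/kg (SD, n = 6). Lepr, the leptin receptor, measured 30.8, 46.4, 29.6 and 36.7 CPM in vehicle and 11.6, 15.2 and 22.7 CPM at 6 mg/kg, without overlap (log2 fold change -1.12, SE 0.278, edgeR adjusted p 0.0354). Btg1, an antiproliferative gene, measured 69.9, 90.7, 60.7 and 83.5 CPM in vehicle and 25.6, 40.5 and 59.8 CPM at 6 mg/kg, without overlap (log2 fold change -0.90, SE 0.186, edgeR adjusted p 0.0192). Ngef, a guanine nucleotide exchange factor, rose (1.15, SE 0.188, edgeR adjusted p 0.00599), and Rassf3, a Ras-association protein, fell (-1.01, SE 0.194, edgeR adjusted p 0.0134).

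Further genes lower at 6 mg/kg were Immp1l, a peptidase of the inner mitochondrial membrane, with 25.8, 29.9, 27 and 34 CPM in vehicle and 9.26, 14.4 and 18 CPM at 6 mg/kg (log2 fold change -1.06, SE 0.183, edgeR adjusted p 0.00932), and Npm1, a nucleolar chaperone, with 146, 131, 128 and 151 CPM in vehicle and 60.7, 84.2 and 104 CPM at 6 mg/kg (log2 fold change -0.74, SE 0.143, edgeR adjusted p 0.0134). Neither overlapped between the groups. Lysmd3, a membrane protein with a LysM domain, fell too (-0.90, SE 0.167, edgeR adjusted p 0.0134). Mitochondrial import, proteases and ribosome had 2 of 68 lower, Immp1l among them, and Nuclear-encoded respiratory chain and Cytosolic ribosomal proteins had 0 called of 75 and 80, with medians of -0.05 and -0.09. Sex-biased liver genes, Amino acid and urea cycle enzymes and Periportal zonation had 0 called of 43, 52 and 25, while Pericentral zonation had 2 of 24 higher, Cyp1a2 and Ces2a, and 1 lower, Avpr1a; Dio1, the liver deiodinase of thyroid hormone, was the only call of 22 Thyroid hormone genes (0.75, edgeR adjusted p 0.0494).

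Families read from gene symbols alone, with no list, were ranked by their share of called members. Among 238 families with at least 8 tested genes, the 6 highest were Cyp2c (30.8%, 4 of 13), Gbp (27.3%, 3 of 11), the phosphate and anion carriers Slc17 (25%, 2 of 8, both lower), Hspa (23.1%, 3 of 13, all lower), Dnajb (22.2%, 2 of 9, both lower) and Tmed (22.2%, 2 of 9, both lower). The share over all genes tested was 2.8% in both directions together.

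A second contrast set the 6 livers at 6 mg/kg against the mean of the 0.1 and 1 mg/kg groups, with no vehicle sample in it. It called 9 genes by edgeR's quasi-likelihood test, 8 higher (0.0617% of genes tested) and 1 lower (0.00771%), and 2032 genes had an unadjusted p under 0.05, 1156 higher and 876 lower. Cyp2b10 had a log2 fold change of 4.35 (edgeR adjusted p 0.00462), Cyp3a59 1.08 (0.0296), Irf7 0.81 (0.0296), Abl1, a tyrosine kinase, 0.58 (0.0348) and Gbp11 1.44 (0.035), and these 5 were also called against vehicle. Fyb2, an adaptor protein, had 1.49 (0.00958), the lipid phosphatase Synj2 1.46 (0.0296) and the zinc transporter Slc39a5 1.18 (0.0296). Cela1, an elastase, was lower (-1.10, edgeR adjusted p 0.0401). Of the 46 tested members of the Type I interferon response, 24 were higher than at the lower doses at an unadjusted p under 0.05 and 0 lower. Their median was 0.48. Of the 32 tested members of Endoplasmic reticulum chaperones and folding, 1 was higher and 19 were lower, with a median of -0.44. Over all 12968 genes tested, 1156 were higher and 876 lower at that unadjusted p. Dnajb9 (-0.94, edgeR adjusted p 0.0646) and Hspa5 (-1.01, edgeR adjusted p 0.0782) did not pass after adjustment. The count of calls was 2 without animal 23 or 25 at 0.1 mg/kg, without animal 50 at 1 mg/kg or without animal 52 or 58 at 6 mg/kg, 3 without animal 54, 4 without animals 28 or 46, 79 without animal 55 and 125 without animal 56. The GC slope was -0.15 to -0.14 at 0.1 mg/kg, below the -0.02 to 0.24 at 6 mg/kg, and -0.26 to 0.32 at 1 mg/kg. With the GC slope as a covariate in edgeR this second contrast called 2 genes.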

How the data were processed

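Liver values are raw read counts by Entrez gene, 1 column a library, used as the authors deposited them. The protocol attached to the liver samples names TRIzol and RNeasy columns for the RNA but speaks of brain tissue punches. Liver RNA was taken to follow the same kits. The labels' protocols name both poly(A) capture and ribosomal RNA removal for enrichment and do not say which was used. The submitters' processing notes name FastQC, HISAT2 and the build mm10; the counting tool, the annotation, the use of strand and the treatment of reads that match several genes are not given in the sources used here. No gene in the table totalled fewer than 10 counts. The brain tables were not used. Symbols came from the RefSeq gene list of GRCm38.p6 and named 99.95% of the identifiers.

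Samples were grouped by the tissue and treatment labels, and columns were matched by title; each title holds an animal number, read as a separate animal, since the labels say no more. Within the vehicle group and within the 6 mg/kg group, no 2 libraries agreed within sampling noise (smallest chi-square per degree of freedom 12.9). Pairs between groups and the lower-dose libraries were not compared in this way. Of 16206 genes, 12968 passed filterByExpr. All 20 liver libraries entered 1 quasi-likelihood fit with robust dispersions in edgeR 4.0.16 (R 4.3.3) with trimmed mean of M values (TMM) scaling. The contrasts were 6 mg/kg minus vehicle and 6 mg/kg minus the mean of the 0.1 and 1 mg/kg coefficients, with Benjamini-Hochberg adjustment over all genes tested and a threshold of 0.05. CPM are TMM-scaled, except the summed CPM of cell type markers, and a prior count of 2 entered log2 CPM. The marker sums and their permutation tests used total counts without the TMM factors. In the vehicle and 6 mg/kg livers those factors ran from 0.939 (vehicle animal 8) to 1.22 (treated animal 52). Marker sums and single-gene CPM are therefore not on the same scale. The fit was tested on simulated data with planted changes. Simulated counts were drawn gene by gene, with no shift in clock index or GC slope between the groups. The shares of false calls below therefore hold for such data and do not carry over to the 363 calls. For 6 mg/kg against vehicle the fit recovered 37% of the 2-fold and 7% of the 1.5-fold changes, and 2.2% of its calls were false. Against the lower doses it recovered 56% and 16%, with 1.4% of calls false. A gene that did not pass can therefore still differ. Standard errors are the absolute log2 fold change over the square root of F. Precision is limited by 4 and 6 animals a group. Group differences in technical measures were tested by two-sided exact permutation in SciPy 1.17.1.

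The gene lists, the members and the comparisons were chosen with earlier results of these data known. Lists are described by counts of called members and medians of fitted log2 fold changes, with no set test. Genes are named by a rule: per direction, the 8 called genes of smallest p whose groups do not overlap, up to 8 called members of each list, each list's first gene, and 4 in each direction of the second contrast. Other genes were chosen after their values were seen. Alternatives were DESeq2 1.42.0, limma 3.58.1 (voom with quality weights), median-ratio scaling, other count filters, the groups of the contrast alone, 1 surrogate variable (sva 3.50.0), GC content and length, the GC slope, the clock index and each replicate left out. GC content was known for 96.5% of genes tested, from the longest GENCODE vM21 transcript.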

Additional observations from a re-analysis of the deposited data

Results flagged for a closer look

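Among 128 sets of values checked for 1 sample far from the others of its group by Dixon's criterion, 8 had such a sample; chance alone gives about 1 in 20, or 6.4. At 6 mg/kg, animal 58 stood above the other 5 livers for Xaf1 (34.5 CPM against 15.2 to 21.6 CPM), for Mafg (124 CPM against 87.1 to 96.4 CPM), for Clec4f (193.5 CPM against 89.8 to 128 CPM) and for the summed T, NK and B cell markers (29.6 CPM against 12.6 to 17.7 CPM). Animal 56 lay below the others for Trib1 (30.4 CPM against 39.3 to 41.8 CPM). Animal 52 lay above the others for the summed cholangiocyte markers (250.8 CPM against 112.7 to 162.9 CPM) and for the summed neuron and glia markers (290.8 CPM against 135.5 to 151.5 CPM). In vehicle, animal 4 lay above the others for Pdk4 (28.9 CPM against at most 13.1 CPM). Without animal 58 the log2 fold changes against vehicle were 1.44 for Xaf1 (edgeR adjusted p 0.0364), 0.89 for Mafg (0.00942) and 0.75 for Clec4f, which then did not pass (0.0896).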

How the results depend on the processing

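The 363 calls against vehicle became 1122 with DESeq2, 3205 with limma-voom (1492 higher, 1713 lower), 241 with no filter on low counts, 13 with only the groups of the contrast, 124 with the offset for GC content and length, 1 when the GC slope was a covariate (1325 unadjusted at 0.05) and 0 when the clock index was one (471 unadjusted). Median-ratio scaling gave 372, a mean of at least 10 counts 403 and 1 surrogate variable 371 (175 higher, 196 lower). The 9 calls against the lower doses became 252, 45, 8, 4, 9, 2 and 2 under the first 7 of these, in that order, and 149 with the surrogate variable. With DESeq2, called members numbered 24 in the Type I interferon response, 13 among ER chaperones, 14 in ER degradation and translocation, 10 in vesicle traffic and 10 among CAR and PXR target P450s. With limma-voom they numbered 28, 17, 26, 21 and 12, in the same order, and these counts hold both directions. Of the CAR and PXR target P450s, 6 were higher and 4 lower with DESeq2, and 6 higher and 6 lower with limma-voom. The main fit had 5 higher and 1 lower. In the Type I interferon response limma-voom called 27 higher and 1 lower. With only the groups of the contrast, called members of the 5 lists numbered 3, 1, 0, 0 and 2, and with the GC slope 0, 0, 0, 0 and 1. With the clock index all 5 lists had 0. The GC and length offset left 3 ER chaperones, 2 genes of ER degradation and translocation and 1 of vesicle traffic, and dropping the filter left 3 and 2 in the last pair. Leaving out 1 replicate at a time gave 3 to 1302 calls against vehicle and 2 to 125 against the lower doses, and 0 to 24, 1 to 14, 0 to 17, 0 to 12 and 0 to 10 called members of the 5 lists. Of 98 genes checked singly against vehicle, only Arntl changed sign, to a log2 fold change of 0.53 with the clock index as a covariate, which contains it. The cause of these changes was not tested beyond the fewer samples or genes that some alternatives hold. No paired analysis was possible because the groups compared share fewer than 2 replicate numbers. Depth limits the lowest genes, such as Cyp2b10 in vehicle with 7 to 23 counts.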
